A study of Sus scrofa with 12 samples.

Results

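The insulin-like growth factor (IGF) axis in pig liver was followed through 10 genes, namely GHR, IGF1, IGF2, IGFALS, IGF1R and the IGF binding proteins IGFBP1, IGFBP2, IGFBP3, IGFBP4 and IGFBP5. The members were all probe sets that carry one of these symbols alone in the platform annotation, which gave 46 of the 47845 probe sets on the array. Liver RNA of 12 pigs, taken after feeding at day 140 of age, was hybridized to Affymetrix snowball arrays for the pig, each animal on its own array. The sample labels class 6 pigs as low and 6 as high in residual feed intake (RFI), the part of feed intake that growth and body size do not account for, and low RFI stands for high feed efficiency. Each class held 3 males and 3 females, and the labels do not say whether the males were castrated. All pigs came from Large White × Landrace sows and Hylean Maxgro boars and had free access to the same finisher diet, so the classes differ in the trait and not in a treatment. A single pig is given as P followed by its number in the labels.

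Growth hormone from the pituitary binds GHR on hepatocytes and acts through JAK2 and STAT5 to switch on IGF1 and IGFALS, and the liver is the main source of circulating IGF1. Most IGF in blood is held in a complex of IGF, IGFBP3 or IGFBP5, and the acid-labile subunit encoded by IGFALS, which keeps it in the circulation. IGFBP1 and IGFBP2 carry IGF outside that complex, and IGFBP1 transcription in liver is suppressed by insulin and rises in fasting.

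The values are log2 intensities after robust multichip averaging, with array medians between 3.48 and 3.53. They do not rank one gene against another, since probe sets differ in how brightly they hybridize. The hepatocyte markers ALB, APOA1, TTR, TF, FGB and SERPINA1 were bright on every array, with a summed level on the log2 scale of 15.82 to 15.97 in pigs labelled low RFI and 15.86 to 15.91 in pigs labelled high RFI. On the first principal component (14.8% of the variance), pig P317, labelled high RFI, lay at -28.15 among the pigs labelled low RFI, which ranged from -37.54 to -8.725, while the other 5 pigs labelled high RFI had scores from 7.766 to 40.05. Control probe sets for background whose probes hold 17 to 24 G or C bases read 6.47 to 6.67 in pigs labelled low RFI and 6.49 to 6.78 in pigs labelled high RFI. Each gene is described through its probe set of highest mean, and a difference is the mean of pigs labelled low RFI less that of pigs labelled high RFI. For the probe sets that the study lists as altered, the labels give the opposite direction to the one it states. Which is right could not be settled, and every sign given here follows the labels.

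No probe set of the IGF axis passed the threshold of the study's methods, a q-value (the expected share of false calls) under 0.30, when limma, which shares variance information between probe sets, was fitted to all of them with RFI class as the only factor. The count was 0 of 46, against 0.0314% of all probe sets called, and the lowest q-value among the members was 0.519. At an unadjusted p under 0.05 there were 4 of 46 (8.70%), against 7.29% of all probe sets. These belonged to IGFBP1, which was higher in pigs labelled low RFI, and to IGFALS, IGFBP2 and IGFBP3, which were lower. Of the 46 probe sets, 35 had lower means in pigs labelled low RFI (76.1%, against 53.3% of all probe sets), with a median log2 difference of -0.07 against -0.01 for all probe sets. Probe sets of one gene share a target, so these are not 46 separate observations. The classes were free of overlap for 0 of the 46, against 0.339% of all probe sets. Through the probe sets of highest mean, 7 genes had lower and 3 had higher means in pigs labelled low RFI.

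**Figure D1:**
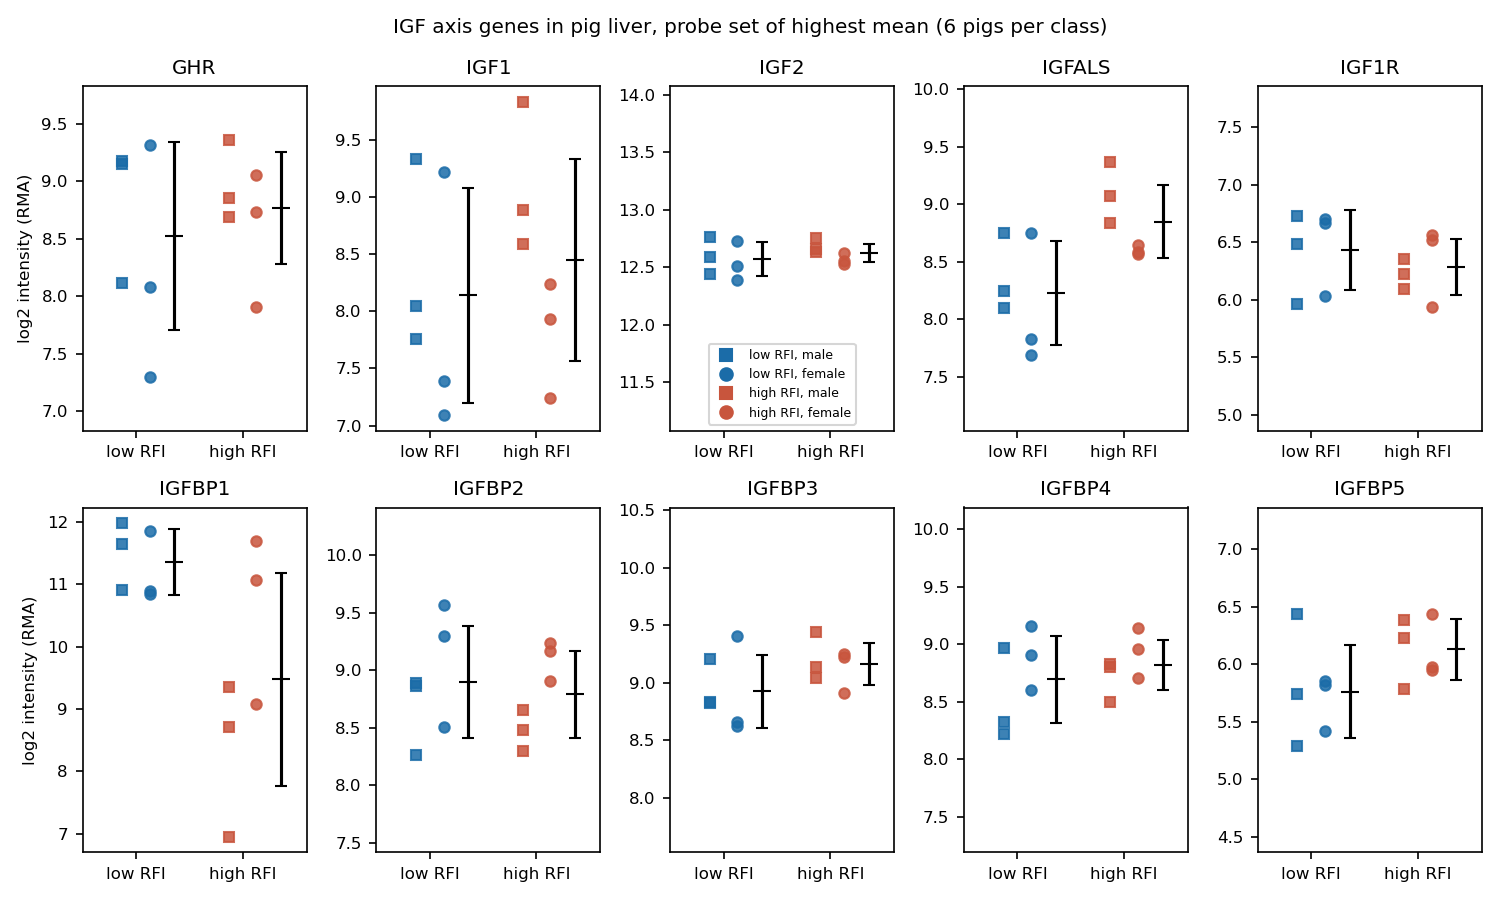
Log2 intensity of each IGF axis gene (y axis) through its probe set of highest mean in pigs labelled low and high RFI (x axis); squares are males, circles females, and the black bar is the mean with its SD (n = 6 per class). All panels span at least 3 log2 units. The pigs labelled low RFI lie between 10.85 and 11.98 for IGFBP1, while those labelled high RFI spread from 6.95 to 11.70.

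IGFBP1, the insulin-suppressed binding protein, had the largest difference of the members. Its only probe set, SNOWBALL_019768, read 10.85 at the lowest, 11.28 at the median and 11.98 at the highest in pigs labelled low RFI. The pigs labelled high RFI read 6.95, 9.22 and 11.70. Every one of the 6 low-class pigs exceeded the high-class mean, but the classes overlapped, because the females P317 (11.07) and P318 (11.70) of the high class were as high as the low class. The means were 11.36 ± 0.52 (SD, n = 6) and 9.48 ± 1.71 (SD, n = 6), a log2 difference of 1.88 (SE 0.62, 95% interval 0.55 to 3.2) or 3.67-fold. In limma the q-value was 0.519. An exact permutation test of this one difference, two-sided and one of 10 such tests run on the members, gave p = 0.0346. Over all 12 pigs, only 18 probe sets on the array had a larger SD than the 1.55 of IGFBP1.

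Between the sexes, the class difference of IGFBP1 was uneven. The 3 males labelled low RFI had 10.91, 11.64 and 11.98, and the 3 males labelled high RFI had 6.95, 8.71 and 9.36. The male groups did not overlap, which held for 13.6% of all probe sets in either direction and for 6.69% in this one. The females had 10.85, 10.90 and 11.86 in the low class and 9.08, 11.07 and 11.70 in the high class. The difference was thus 3.17 in males and 0.59 in females, and the interaction of sex and class was 2.58 (SE 0.95, q = 0.962 in limma). The interaction did not pass correction over all probe sets. For no probe set on the array did it do so, the background being 0.0% called and 4.44% at an unadjusted p under 0.05, and IGFBP1 was the 1 member of 46 at that level. Leaving out any 1 pig moved the class difference of IGFBP1 between 1.37 and 2.32, with q-values from 0.224 to 0.759. Only without pig P317 was IGFBP1 called, with a difference of 2.20 (q = 0.224), in a fit that called 2.81% of all probe sets.

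Of 5 measured genes that fasting raises in liver, PCK1, G6PC and PPARGC1A had higher means in pigs labelled low RFI by 0.89 or more on the log2 scale, and 0 were called. PCK1, the cytosolic enzyme that commits carbon to gluconeogenesis, had 11.15 ± 0.55 (SD, n = 6) in the low class and 9.16 ± 2.03 (SD, n = 6) in the high class, with the lowest value, 6.13, in P302, which was also lowest for IGFBP1. G6PC, which releases free glucose, had 12.43 ± 0.82 and 11.19 ± 1.03, and PPARGC1A, a coactivator of fasting genes, 6.26 ± 0.41 and 5.37 ± 0.52. The q-values of the 3 genes were 0.536, 0.539 and 0.443 in limma. TAT, an enzyme of tyrosine breakdown, differed by 0.35 and CPT1A, which admits fatty acids to mitochondria, by -0.11. Of the genes that feeding raises, SREBF1, FASN and SCD, which drive fatty acid synthesis, differed by -0.27, -0.54 and -0.83. Of these 8 genes, 0 were called by limma fitted to all probe sets. At an unadjusted p under 0.05, 7 of the 17 probe sets of the first group were higher and 3 of the 8 of the second lower. Over all probe sets, 3.79% were higher and 3.51% lower at that level. The 7 belonged to 3 genes and the 3 to SREBF1 alone, without its brightest, and probe sets of a gene share a target. With the filter on SD given below, where 2.66% of kept probe sets were called, SNOWBALL_020913 of SREBF1 was called (q = 0.245). The study lists this probe set as altered without a gene name, and describes the transcript of SREBP-1c, which SREBF1 encodes, as unaffected. ANGPTL4, also on the list, has no probe set under this symbol. The part of feeding state in the IGFBP1 values was not tested.

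IGFALS, which encodes the acid-labile subunit, was the other gene whose brightest probe set had an interval clear of 0. Its single probe set, SNOWBALL_004799, read 7.69, 8.17 and 8.75 (lowest, median, highest) in pigs labelled low RFI. The pigs labelled high RFI read 8.57, 8.75 and 9.37. The lowest of the high class thus lay above 4 of the 6 pigs of the low class, and P308 and P310 of the low class, both at 8.75, reached into its range. The means were 8.23 ± 0.45 (SD, n = 6) and 8.85 ± 0.32 (SD, n = 6), a difference of -0.62 (SE 0.20, 95% interval -1.05 to -0.19, q = 0.519 in limma), or 1.54-fold lower. The exact permutation test, two-sided, gave p = 0.0281. The difference was -0.73 in males and -0.51 in females, and leaving out any 1 pig moved it between -0.72 and -0.51. Without P317 its q-value was 0.281, in a fit that called 2.81% of all probe sets.

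Of the receptors, GHR, which receives growth hormone, ranged widely within both classes. Through SNOWBALL_018628 it read 7.30, 8.64 and 9.32 in pigs labelled low RFI and 7.91, 8.80 and 9.36 in pigs labelled high RFI, so the classes covered much the same range. The difference was -0.24 (SE 0.33, 95% interval -0.96 to 0.47, q = 0.793 in limma, exact permutation p = 0.535). The lowest value belonged to the female P324, and without that pig the difference was 0.00. With the GC-rich background as a covariate it was -0.70. The other 2 probe sets of GHR had means of 3.0 and 1.4, under the median of the array, and differed by less than 0.02.

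IGF1R, the receptor through which both ligands act and which mature hepatocytes carry at low levels, had 6 probe sets, 5 of them with higher means in pigs labelled low RFI. The brightest, SNOWBALL_003019, read 5.96, 6.58 and 6.73 in the low class and 5.94, 6.29 and 6.56 in the high class. This was a difference of 0.15 (SE 0.16, 95% interval -0.19 to 0.49, q = 0.765 in limma, exact permutation p = 0.394). Over the 6 probe sets the differences ran from -0.03 to 0.27, all with intervals that include 0.

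IGF1, the ligand that growth hormone induces, varied strongly between pigs and little between classes. Through SNOWBALL_007703 the pigs labelled low RFI read 7.09, 7.91 and 9.34 and the pigs labelled high RFI 7.24, 8.41 and 9.84. Both classes spanned over 2 log2 units, and the difference of -0.31 (SE 0.45, 95% interval -1.28 to 0.65, q = 0.800 in limma, exact permutation p = 0.548) was smaller than the SD within either class (0.94 and 0.88). Leaving out any 1 pig moved it between -0.56 and -0.04, the latter without P301. The 6 males averaged 8.75 ± 0.78 (SD) and the 6 females 7.85 ± 0.80 (SD), a difference of 0.90 with RFI class as a covariate (SE 0.39, q = 0.753 in limma).

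**Figure D2:**
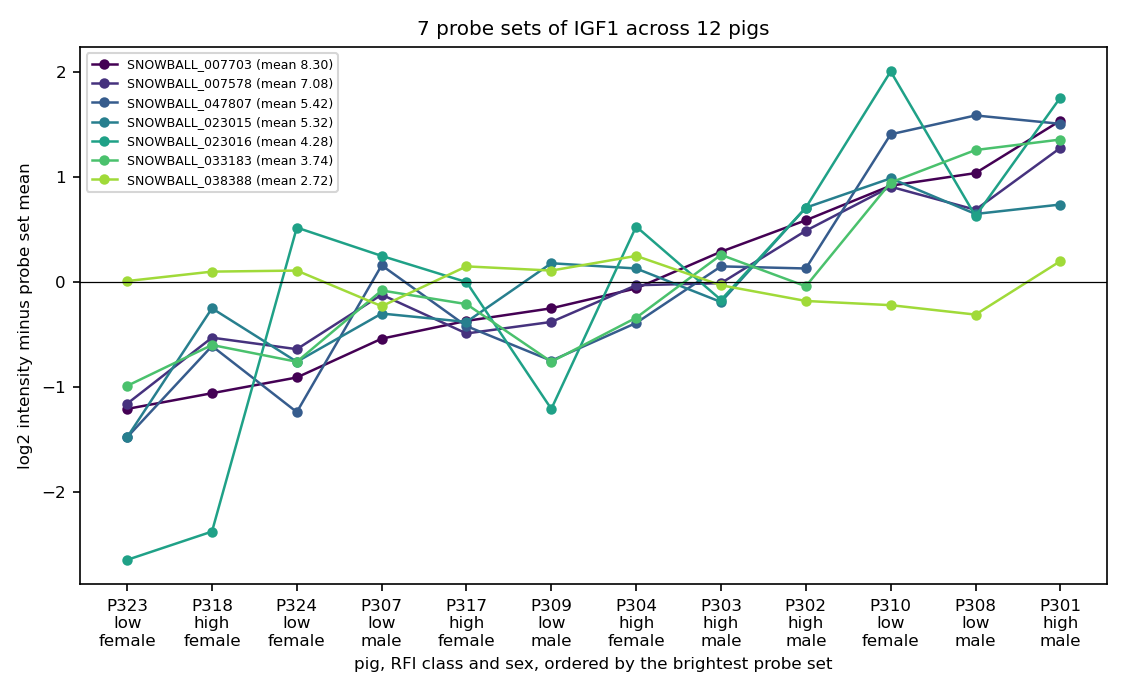
Log2 intensity of the 7 IGF1 probe sets, each minus its own mean over the 12 pigs (y axis), for each pig ordered by the brightest probe set (x axis, with RFI class and sex). Pig P323 is lowest for 6 of the 7 probe sets and P301 is among the top 3 for all 7, while the dimmest probe set, SNOWBALL_038388, is nearly flat.

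Of the 7 probe sets of IGF1, the 6 brightest placed the pigs in much the same order, while on the dimmest, SNOWBALL_038388, P308 was lowest. Pig P323, a female labelled low RFI, was lowest for 6 of the 7, and pig P301, a male labelled high RFI, was among the highest 3 for all 7, followed by P310 with 6 and P308 with 4. All 7 had lower means in pigs labelled low RFI, by 0.12 to 0.31, with none at an unadjusted p under 0.05. SNOWBALL_038388 had a mean of 2.72 and an SD of 0.19, against SDs of 0.71 to 1.44 for the other 6.

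IGF2, the fetal ligand that pig liver goes on expressing after birth, was the steadiest member. Its brightest probe set, SNOWBALL_022586, read 12.39, 12.55 and 12.76 in pigs labelled low RFI and 12.53, 12.63 and 12.75 in pigs labelled high RFI. The difference was -0.05 (SE 0.09, 95% interval -0.24 to 0.14, q = 0.810 in limma, exact permutation p = 0.444), and the SD over all pigs, 0.12, was at the 4.73 percentile of the array. The mean of this probe set was at the 99.8 percentile, and whether such brightness narrows its spread was not tested. Over the 14 probe sets of IGF2 the differences ran from -0.16 to 0.36. The widest spread was in SNOWBALL_025926, with an SD of 0.69 and values down to 5.10 in P301 and up to 7.16 in P303.

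Of the other binding proteins, IGFBP2, a carrier that liver makes in larger amounts when growth hormone or feed is scarce, gave different answers through its 2 probe sets. SNOWBALL_020973 read 8.26, 8.88 and 9.57 in pigs labelled low RFI and 8.30, 8.78 and 9.24 in pigs labelled high RFI, a difference of 0.11 (SE 0.22, q = 0.825 in limma, exact permutation p = 0.671). SNOWBALL_022442 had 8.17 ± 0.23 (SD, n = 6) and 8.53 ± 0.36 (SD, n = 6), a difference of -0.36 (SE 0.16, q = 0.589), and the highest pig was P317 at 9.17. The direction of IGFBP2 between classes therefore rests on the probe set. By sex, SNOWBALL_020973 averaged 8.57 ± 0.27 (SD) in the 6 males and 9.11 ± 0.37 (SD) in the 6 females, a difference of -0.54 (SE 0.17, q = 0.670 in limma). Without pig P310 it was -0.69 (q = 0.282), where 0.0982% of all probe sets were called.

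IGFBP3, the main carrier of IGF in blood, which in rat liver comes mainly from cells other than hepatocytes, had lower means in pigs labelled low RFI through both probe sets. SNOWBALL_029030 read 8.62, 8.82 and 9.41 in the low class and 8.91, 9.18 and 9.44 in the high class, a difference of -0.24 (SE 0.14, q = 0.651 in limma, exact permutation p = 0.134). SNOWBALL_019860 had 6.48 ± 0.17 (SD, n = 6) and 6.71 ± 0.11 (SD, n = 6), a difference of -0.23 (SE 0.10, q = 0.580). In whole tissue, fewer cells of a type and less RNA per cell cannot be told apart. The summed level of the 6 endothelial markers on the log2 scale was 10.24 to 10.81 in pigs labelled low RFI and 10.17 to 10.77 in pigs labelled high RFI. That of the 4 measured Kupffer cell and macrophage markers was 10.40 to 11.10 and 10.25 to 10.73. Of these 4, 3 had higher and 1 had lower means in the low class, with a median difference of 0.04 and the largest, 0.68, for CD163 (q = 0.540). The part of these markers and of the endothelial ones in the IGFBP3 values was not tested.

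IGFBP4, an inhibitory carrier that the protease PAPPA cleaves, read 8.22, 8.75 and 9.16 in pigs labelled low RFI and 8.50, 8.81 and 9.14 in pigs labelled high RFI through SNOWBALL_014477. The ranges were nested, and the difference was -0.13 (SE 0.16, q = 0.787 in limma, exact permutation p = 0.483). IGFBP5, which binds to matrix and can also enter the complex with the acid-labile subunit, read 5.29, 5.78 and 6.44 in the low class and 5.79, 6.11 and 6.44 in the high class through SNOWBALL_033668. In 5 of the 6 pigs labelled low RFI it was under the mean of the other class, the difference being -0.37 (SE 0.18, 95% interval -0.75 to 0.01, q = 0.608 in limma, exact permutation p = 0.0823). Of its 8 probe sets, 7 had lower means in pigs labelled low RFI. The 7 stellate cell and fibroblast markers, cells that also make IGFBP5, summed to 10.09 to 11.66 in the low class and 10.30 to 10.86 in the high class. Of the 7, 4 had lower and 3 had higher means in the low class, with a median difference of -0.02. The largest difference was that of RGS5, higher by 0.71 (SE 0.31, q = 0.586 in limma). The part of these markers in the IGFBP5 values was not tested. With the GC-rich background as a covariate the IGFBP5 difference was -0.11. IGFBP1 lies next to IGFBP3, and IGFBP2 next to IGFBP5, with 0 genes between either pair in the RefSeq annotation of Sscrofa11.1, yet the differences of IGFBP1 and IGFBP3 had opposite signs.

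**Figure D3:**
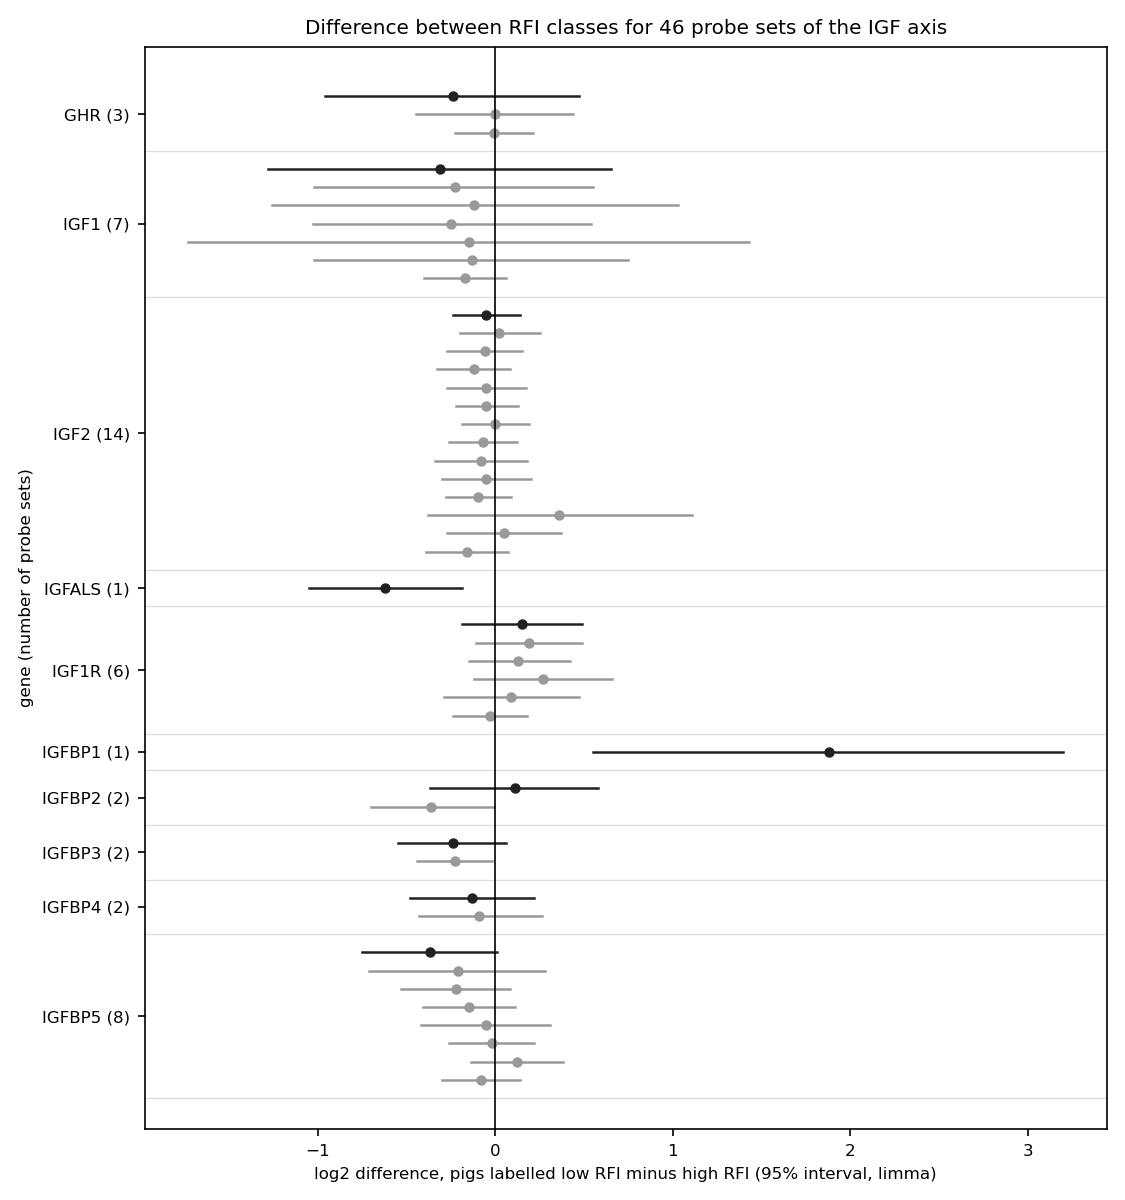
Log2 difference between pigs labelled low RFI and high RFI (x axis, point, with its 95% interval from limma as a line) for the 46 probe sets of the IGF axis (y axis, grouped by gene, brightest first). Black marks the probe set of highest mean of each gene and grey the others. IGFBP1 lies at 1.88 and IGFALS at -0.62, and the intervals of the other 8 black points include 0.

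Between the sexes, with RFI class as a covariate, limma called 0 of the 46 probe sets, with 3 at an unadjusted p under 0.05, against 0.0397% and 6.11% of all probe sets. The 3 were the probe sets of IGF1 and IGFBP2 already given and a dim one of IGFBP5, SNOWBALL_037536, which differed by 0.23 (q = 0.734). Means were higher in males for 30 of the 46, against 51.9% of all probe sets. A filter was rebuilt from the study's methods, dropping the probe sets of lowest SD over all pigs and of highest SD within a class. It kept 28 of the 46 (60.9%, against 74.9% of all probe sets). Left out were the brightest probe sets of GHR, IGF1, IGF2, IGFBP1, IGFBP2 and IGFALS. The rebuilt filter does not fully match that of the study, since it also dropped SNOWBALL_028242 of INSR, which the study lists as altered. Among the 28 kept, 0 were called, against 2.66% of all kept probe sets, and the lowest q-value was 0.35, for SNOWBALL_022442 of IGFBP2.

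Some members varied together across pigs. Of 7 relations examined, 6 of them between members and 1 of IGFBP1 with PCK1, each after the class means were subtracted and tested by 1e+05 permutations within classes (two-sided), 5 had a Benjamini-Hochberg adjusted p under 0.05 for Pearson's r. The 7 relations share genes and pigs, so they are not independent of each other.

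**Figure D4:**
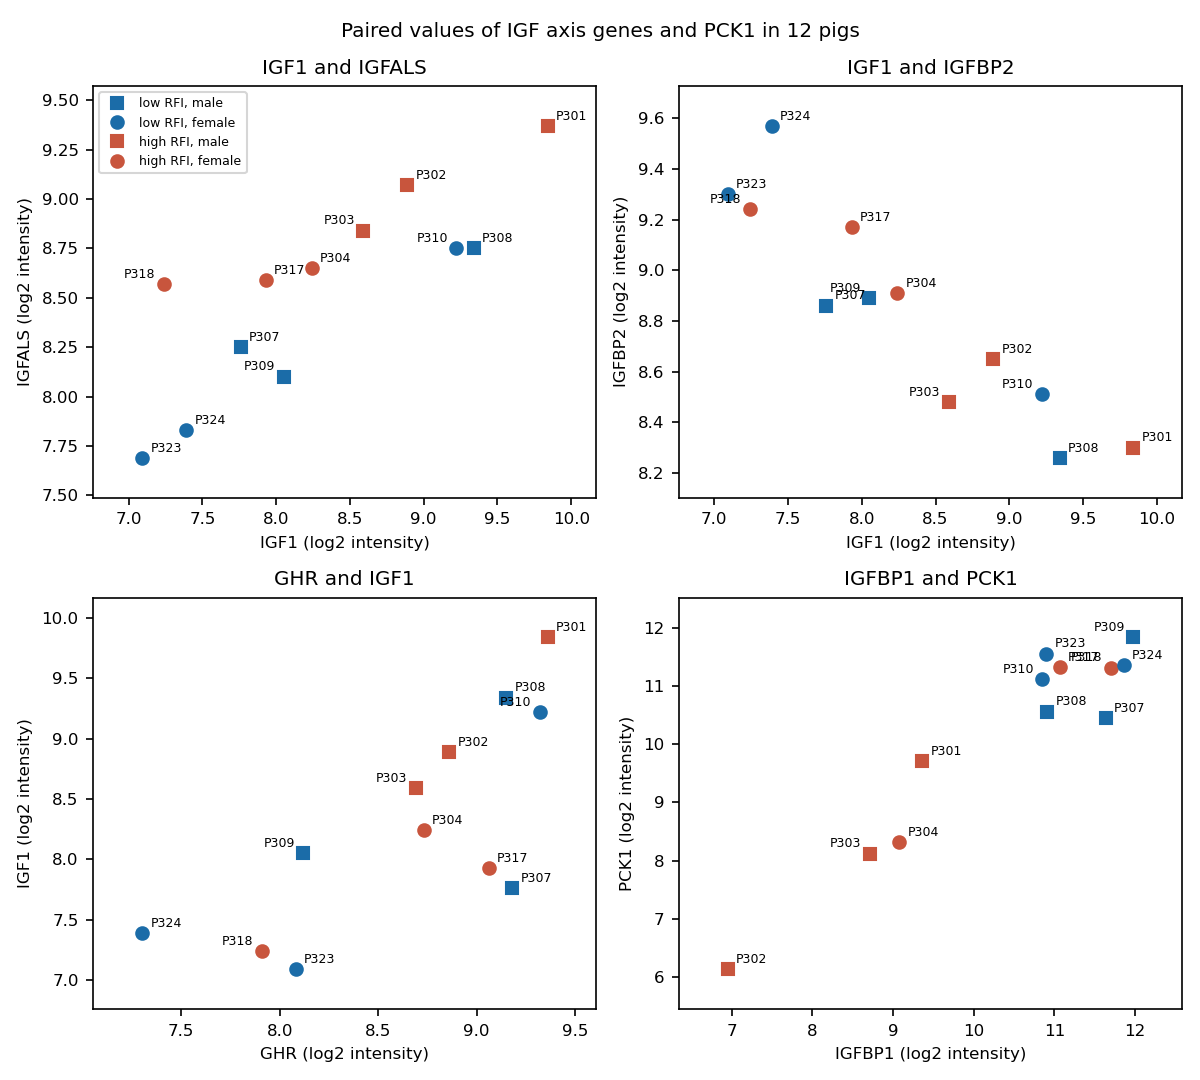
Log2 intensities of gene pairs in the 12 pigs, both axes in log2 units; blue marks pigs labelled low RFI, red pigs labelled high RFI, squares males and circles females. IGFALS is higher where IGF1 is higher, along separate lines for the classes (r = 0.97 and 0.95), IGFBP2 is lower where IGF1 is higher (r = -0.92 in both), and PCK1 and IGFBP1 are low in the same 4 pigs labelled high RFI.

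IGF1 and IGFALS, both induced by growth hormone, were correlated at r = 0.96 (p = 1e-05, the smallest these permutations can give, adjusted p = 7e-05) and rho = 0.93 (p = 0.00012, adjusted p = 0.00042) over 12 pigs. Within the classes r was 0.97 in the 6 pigs labelled low RFI and 0.95 in the 6 labelled high RFI, and it was 0.94 within each sex. Without P301 and P308, the pigs farthest from the median of IGF1, it was 0.92. Among the 13755 symbols on the array, IGFALS was the one whose brightest probe set followed IGF1 most closely. The next were PTGFR, a prostaglandin receptor (r = 0.91, rho = 0.87, on a dim probe set with a mean of 1.98), and AGMAT, an agmatinase (r = 0.89, rho = 0.90), both ranked for this likeness and so given with no test.

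IGFBP2, through SNOWBALL_020973, ran against IGF1. The correlation was r = -0.92 (permutation p = 0.0002, adjusted p = 0.0007) and rho = -0.94 (p = 0.0001, adjusted p = 0.00042), with r = -0.92 in each class, -0.89 in males and -0.91 in females. Without P301 and P308 it was -0.87. Pigs P301, P308 and P310, with IGF1 at 9.84, 9.34 and 9.22, had IGFBP2 at 8.30, 8.26 and 8.51. Pigs P323, P318 and P324, with IGF1 at 7.09, 7.24 and 7.39, had IGFBP2 at 9.30, 9.24 and 9.57. With the mean over both probe sets of IGFBP2 and all 7 of IGF1, r was -0.71 (adjusted p = 0.0272). The genes that followed IGFBP2 most closely were AGPAT6, an acyltransferase of triglyceride synthesis (r = 0.92), RNF152, a ubiquitin ligase (r = 0.92), and SELH, a selenoprotein (r = 0.87), over 12 pigs.

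GHR and IGF1 were correlated at r = 0.74 (permutation p = 0.0117, adjusted p = 0.0204) and rho = 0.67 (p = 0.0265, adjusted p = 0.0463). Within classes r was 0.73 and 0.81 in the low and high class, within sexes 0.53 in males and 0.86 in females, and without P318 and P324 0.66. IGFALS and IGFBP3, which share the circulating complex, had r = 0.71 (permutation p = 0.0245, adjusted p = 0.0344) and rho = 0.63 (p = 0.0521, adjusted p = 0.0729). For that pair r was 0.96 in the low class and 0.11 in the high class, and 0.94 in females and 0.43 in males, with neither contrast tested. It was 0.53 without P323 and P324, 2 females of the low class.

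IGFBP1 followed PCK1 at r = 0.92 (permutation p = 0.00214, adjusted p = 0.00499) and rho = 0.79 (p = 0.0115, adjusted p = 0.0269). In pigs labelled high RFI r was 0.98 over a range of IGFBP1 from 6.95 to 11.70, and in the narrower range of the low class it was 0.29, a contrast that was not tested. Over all pigs it was 0.80 without P302 and P303. PCK1 ranked second of all symbols in likeness to IGFBP1, after KIF5C, a kinesin on a dim probe set with a mean of 1.74 (r = 0.95), and before PTPRA, a receptor tyrosine phosphatase (r = 0.91). The relations of IGF1 with IGFBP1 (r = -0.51, permutation p = 0.0849, adjusted p = 0.0849, rho = -0.53, p = 0.0974) and of IGFBP1 with IGFBP2 (r = 0.51, permutation p = 0.0577, adjusted p = 0.0674, rho = 0.55, p = 0.0681) did not pass the threshold.

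Around the members, 35 of 36 listed genes of growth hormone and IGF signaling were measured through 89 probe sets, and 0 were called between the classes in limma. At an unadjusted p under 0.05, 7 probe sets were higher in pigs labelled low RFI, against 3.79% of all probe sets in that direction, and 1 was lower, against 3.51%. The median difference was -0.01. The 7 belonged to 4 genes, and these also had the smallest p of the list.

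IRS2, the docking protein of insulin and IGF receptors in liver, read 8.17 to 8.52 in pigs labelled low RFI and 6.62 to 8.19 in pigs labelled high RFI. Only P317 of the high class reached the low class, and the difference was 0.86 (SE 0.21, q = 0.443 in limma). INSR, the insulin receptor and nearest relative of IGF1R, was at 8.57 ± 0.26 (SD, n = 6) and 7.97 ± 0.56 (SD, n = 6), a difference of 0.59 (q = 0.540) through its brightest probe set. The study lists another of its probe sets, SNOWBALL_028242, as altered, and here that one differed by 0.50 (SE 0.18, q = 0.534).

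SOCS2, a target of STAT5 that damps growth hormone signaling, read 8.69, 9.08 and 8.98 in P308, P309 and P310, while the other 3 pigs labelled low RFI read 5.88 to 7.25 and the 6 pigs labelled high RFI 5.89 to 7.15. Its difference was 1.19 (SE 0.50, q = 0.580) and 1.47 through SNOWBALL_034491 (SE 0.55, q = 0.540). Of these 3 pigs, P308 and P310 were also high for IGF1, at 9.34 and 9.22, whereas P309 had 8.05. IGF2BP3, which binds IGF2 mRNA, differed by 0.55 (SE 0.21, q = 0.546), and it was higher in males by 0.54 (q = 0.615). Through their brightest probe sets, JAK2 and STAT5B, which carry the signal of GHR, differed by 0.21 and 0.02 between the classes, IGF2R, which clears IGF2, by -0.22, and PAPPA by -0.07, with intervals that include 0.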

How the data were processed

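Liver RNA of 12 pigs was profiled with 1 array per pig. By the submitters' processing notes, GCOS 1.1.1 was used to read the arrays. The authors normalized them by robust multichip averaging in R, and deposited 1 log2 intensity for each of 47845 probe sets, with a range of 0.39 to 14.26. Background correction and quantile scaling over the arrays tie each value to the other arrays. Arrays have no depth, so the 6 pigs per class set the precision. Gene names follow the platform annotation, in which 26426 probe sets have 1 symbol and the others none. RefSeq tables served only for gene order.

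All probe sets were fitted by limma 3.58.1 in R 4.3.3 with RFI class as the factor. Storey's q-value (lambda 0.05 to 0.90) under 0.30 was the threshold. A filter on SD rebuilt from the methods (lowest 10% over all pigs, highest 10% within a class) selects on the spread of the classes compared, so it was an alternative. The sexes were compared with class in the model, and the interaction of both was fitted. The fit was tested on simulated data. Siblings were selected by the study, but the labels do not name them, so no pairing entered. Each array is a separate animal. The 10 brightest member probe sets were also compared by exact permutation over all splits into 6 and 6 pigs, which cannot give a p below 0.00216. These splits took no account of sex or litter, although the study balanced both when it selected the pigs. Correlations used Python 3.11.15 and scipy 1.17.1. A further planned relation is not reported here. Named outside the members were the 4 genes of the pathway list with the smallest p, the 3 symbols most like IGF1, IGFBP1 and IGFBP2, and the genes of the feeding state list; others were chosen after their values were seen. Cell markers were summed over linear intensities of the brightest probe sets. Alternatives changed the filter, threshold, covariates, weights, variance model, scaling, probe sets and pigs. The members and lists were chosen with earlier results of these data known. Sequences and RT-qPCR values were not used here.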

Additional observations from a re-analysis of the deposited data

Results flagged for a closer look

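In 3 of 92 groups of 6 pigs (46 probe sets, 2 classes), Dixon's test set 1 pig apart from the rest of its class, where chance alone gives about 4.6. IGF1 through SNOWBALL_047807 was 6.93 in pig P301, against 4.81 to 5.57 in the other pigs labelled high RFI. IGF2 through SNOWBALL_022582 was 4.99 in pig P307, against 5.18 to 5.29 in the other pigs labelled low RFI. IGFBP5 through SNOWBALL_037536, a dim probe set, was 1.82 in pig P317, against 2.07 to 2.14 in the other pigs labelled high RFI.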

How the results depend on the processing

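No member was called between the classes in limma under the filter on SD, sex as a covariate, array weights, a variance trend, median or quantile scaling, dim probe sets left out, 1 sex only, the GC-rich background as a covariate (added after results were known) or a Benjamini-Hochberg adjusted p under 0.05. The filter on SD drops the only probe sets of IGFBP1 and IGFALS, so neither gene could be called under it. With 1 pig left out, 0 to 2 members were called between the classes. The 2 were IGFBP1 and IGFALS without P317, where 2.81% of all probe sets were called. Between the sexes it was 0 to 1, the 1 being IGFBP2 without P310, where 0.0982% were called. Over all probe sets, the count of 15 between classes became 952 with the filter on SD, 225 without dim probe sets, 25 with sex as a covariate, 2 in males, 0 in females, 0 with the GC-rich background, 0 after Benjamini-Hochberg adjustment, and 1 to 1345 with 1 pig left out. Of 224 refits of single genes, 218 kept their direction and side of the threshold. The direction turned for IGF1 in females (0.093), for IGFBP2 over the mean of its probe sets (-0.13), and without P324 for GHR (0.0018, lowest -0.41 with another pig left out) and IGFBP2 (-0.027, highest 0.24); the cause was not tested. IGF1 with IGFBP1 passed the threshold without centring (r = -0.51, adjusted p = 0.042), as did IGFBP1 with IGFBP2 (r = 0.48, adjusted p = 0.0349), and, over the mean of all probe sets, IGFBP1 with IGFBP2 (r = 0.63, adjusted p = 0.0318). No paired analysis was possible because the labels do not name the siblings. Signal near background limits the 7 probe sets under the median of the array.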

Other observations

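In a description chosen after the values were seen, with no test, IGF1 of the same pig was taken as a covariate of IGFALS. The slope was 0.41 (SE 0.04) and the difference between pigs labelled low and high RFI was -0.49 (SE 0.07), beside -0.62 (SE 0.20) without the covariate. At equal IGF1, IGFALS was 8.18 to 8.47 in the 6 pigs labelled low RFI and 8.68 to 9.0 in the 6 pigs labelled high RFI, so the classes did not overlap, while the values as measured did. With the same covariate, the classes were free of overlap for 0.564% of the 47844 probe sets other than that of IGF1. Across pigs, IGFALS was the symbol most like IGF1, so this covariate narrows its spread more than that of most probe sets. That share is therefore not an even background, and the lack of overlap is no test of a class difference.

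CISH, which like SOCS2 is a target of STAT5 downstream of GHR, was also singled out after its values were seen. It read 5.76 to 8.91 in pigs labelled low RFI and 5.22 to 9.37 in pigs labelled high RFI, with P302, P309 and P308 highest at 9.37, 8.91 and 8.74. P308 and P309 were thus high for both CISH and SOCS2, whereas P302 had SOCS2 at 5.89 and P310 had CISH at 6.06.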
